A study of Homo sapiens with 12 samples.

Results

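The genes described here are the receptor tyrosine kinase gene FLT3 and 9 genes of the signalling that runs from it: the transcription factor genes STAT5A and STAT5B, the kinase genes PIM1, PIM2 and PIM3, and the feedback inhibitor genes SOCS1, SOCS2, SOCS3 and CISH. They were taken by gene symbol, with earlier results of these data known, and all 10 were found among the 20036 genes of the table. They were followed in the human acute myeloid leukaemia line MV-4-11, over 12 RNA-seq libraries in 4 groups of 3. One group received DMSO, the solvent, with no time given. The others were treated for 48 h with HPA-12, crenolanib, or both together (the combination). HPA-12, obtained as the (1R,3S) isomer, inhibits CERT, the protein that carries ceramide from the endoplasmic reticulum to the Golgi, and crenolanib inhibits the FLT3 kinase. All groups share the line and the genotype label WT, for which no gene is named. The labels name no doses. The libraries of a group are numbered but not said to come from separate cultures, so p-values measure the spread among 3 libraries, possibly technical only.

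FLT3 is a receptor of early blood cells that binds FLT3 ligand. MV-4-11 carries FLT3 with an internal tandem duplication, which signals without ligand and drives STAT5 strongly. Phosphorylated STAT5A and STAT5B enter the nucleus and switch on CISH, SOCS1, SOCS2, SOCS3 and PIM1. The SOCS family proteins, CISH included, bind activated receptors or JAK kinases and damp the signal that induced them, in part by ubiquitin ligation through their SOCS box. PIM kinases are active as soon as they are made, so their abundance sets their activity, and they support translation and survival. RNA levels such as these do not report phosphorylation of FLT3 or STAT5.

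STAT dimers bind GAS elements, spelled TTCNNNGAA, where N is any base. RefSeq promoter windows of 300 bases, from 250 before to 50 after a start site (GRCh38.p14), were found for 9 of the 10 genes, in 12 windows, and both strands were searched. SOCS2 had no window and was not searched. The windows of SOCS3, chr17:78360876-78361175 and chr17:78359618-78359917, both miss its GENCODE 29 gene start at 78360077. Those of STAT5B and PIM3 lie wholly inside the GENCODE 29 gene. The bases just before these gene starts were therefore not searched. Among the windows found, only that of CISH held a GAS match, and it held 4. These matches are shown because CISH was the most lowered of the 10 genes with each compound alone. PIM1, whose window held none, was lowered nearly as far with HPA-12 (log2 change -1.9, against -1.97 for CISH). The stretches are read 5′ to 3′ on the minus strand of chr3:50611991-50612020 and chr3:50611868-50611907, and capitals mark the matches.
CISH distal pair: ccgttTTCCTGGAAagTTCTTGGAAatctg
CISH proximal pair: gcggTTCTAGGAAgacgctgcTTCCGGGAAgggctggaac
The matches began at -241, -230, -129 and -112 from the start site, and an exon of MAPKAPK3 on the opposite strand covers the distal pair. Of 35116 human windows of this length, 7.66% held at least 1 such match, 0.456% held 2 or more, and 7 windows of 6 genes held 4 or more. SOCS1, the gene that rose most, is shown for contrast from chr16:11256205-11256354 on the minus strand, with no match and so no capitals.
SOCS1 upstream: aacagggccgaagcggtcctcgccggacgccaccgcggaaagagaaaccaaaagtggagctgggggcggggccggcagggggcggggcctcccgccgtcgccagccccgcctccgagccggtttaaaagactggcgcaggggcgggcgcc
The 12 windows held 0 matches to TGACGTCA (the CRE element), 0 to TGANTCA (AP-1) and 0 to GCGTGGGCG (EGR1), which 1.85%, 7.71% and 0.795% of all windows held. A match is a description of letters and says nothing of binding in these cells.

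Values are FPKM, fragments scaled by gene length and library size, so levels of different genes are compared per length. Estimated depth was 13.6 to 16.0 M reads in DMSO, 12.1 to 12.8 with HPA-12, 10.1 to 10.2 under crenolanib and 4.4 to 5.07 with the combination. Over the same groups, the 13 mitochondrially encoded genes held 19.6% to 20%, 21.1% to 22.1%, 35.9% to 36.2% and 61.6% to 62.6% of the FPKM sum. All 10 markers of the line, CD33, SPI1 and FLT3 (itself a gene described here) among them, stood at 1 FPKM or more in every library. Their sum did not hold steady. It was 1358 to 1380 FPKM in DMSO, 817 to 838 with HPA-12, 1154 to 1171 under crenolanib and 759 to 802 with the combination. Summed erythroid markers, led by the globin gene HBB, were 80.2 to 87.1 FPKM in DMSO, 221 to 226 with HPA-12, 4372 to 4647 under crenolanib and 27471 to 27924 with the combination. Of the 12 erythroid markers, 4, 8, 11 and 12 reached 1 FPKM in all 3 libraries of these groups, and HBA2 was at 0 with HPA-12. Lymphoid markers summed to at most 7.43 FPKM in any library. The genes listed as stromal and epithelial markers summed to between 9.86 and 66.1 FPKM, led by PECAM1. With HPA-12, where that sum was 63.0 to 66.1 FPKM, PECAM1 alone was at 57.1 to 60.6, so the high sum rests on 1 gene. The part of depth, mitochondrial share and erythroid RNA in the results below was not tested. In bulk RNA, fewer cells of a type and less RNA per cell cannot be told apart.

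Changes are log2 differences of FPKM plus 1 with their standard error, which understates changes of low genes. Rose and fell are used for an adjusted p below 0.05 by limma, with adjustment over 11149 genes. All 10 genes passed the filter of at least 1 FPKM in at least 3 libraries. The median gene fell by 0.62 in the combination against DMSO as deposited. Combination results are therefore also given under median-ratio scaling, which sets each library by the median ratio of its genes to a common reference and shifted that median by 0.5068. In the comparisons without the combination, the same scaling moved the median of all genes by no more than 0.0332. Leaving mitochondrial genes out of the total moved it by 0.104 under crenolanib and 0.107 with the combination, both against DMSO.

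FLT3 itself (ENSG00000122025, chromosome 13, 28003274 to 28100592, minus strand; this and later positions are GENCODE 29 on GRCh38) rose with either compound alone. Its level was 94.4, 94.4 and 94.8 FPKM in the DMSO libraries. It was 149, 159 and 158 FPKM with HPA-12, 135, 126 and 130 under crenolanib, and 56.2, 56.9 and 61.9 with the combination. No 2 groups overlapped. FLT3 rose by 0.71 ± 0.04 with HPA-12 (adjusted p = 2.4e-08) and by 0.46 ± 0.04 under crenolanib (adjusted p = 7.4e-06). In the combination it fell by 0.69 ± 0.07 against DMSO as deposited (adjusted p = 0.0002), but stood at 0.00 under median-ratio scaling (adjusted p = 0.98). Against crenolanib alone it fell by 1.14 ± 0.07, and by 0.47 under that scaling (adjusted p = 0.0038). FLT3LG, the gene of the ligand, stayed at or below 0.35 FPKM in every library and was listed at 0 in all 3 combination libraries.

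The 2 STAT5 genes lie next to each other on chromosome 17 and moved differently. STAT5A (ENSG00000126561, 42287547 to 42311943, plus strand) stood at 17.8, 18.7 and 17.1 FPKM in DMSO and 27.3, 24.5 and 24.4 with HPA-12. Under crenolanib it was 19.8, 19.7 and 23.5 FPKM, and with the combination 4.7, 7.07 and 7.25. The combination libraries were below all others, and the HPA-12 libraries above all others. STAT5A rose by 0.48 ± 0.06 with HPA-12 (adjusted p = 1.2e-05) and by 0.22 ± 0.08 under crenolanib (adjusted p = 0.028). The latter call ended without DMSO library 1 (adjusted p = 0.068), DMSO library 3 (adjusted p = 0.099) or crenolanib library 3 (0.14, adjusted p = 0.076), when no filter on low genes was applied (adjusted p = 0.059), and with 1 spread fitted for all 4 groups (adjusted p = 0.2). In the combination STAT5A fell by 1.38 ± 0.17 against DMSO (adjusted p = 0.00058), and by a log2 difference of -0.76 under median-ratio scaling (adjusted p = 0.015).

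STAT5B (ENSG00000173757, 42199168 to 42276707, minus strand) passed in none of the 6 comparisons between groups. Its mean was 11.2 ± 0.441 FPKM in DMSO, 10.5 ± 0.74 with HPA-12, 11.2 ± 0.16 under crenolanib and 9.0 ± 1.65 with the combination (SD, n = 3). The difference from DMSO was -0.09 with HPA-12 (95% interval -0.23 to 0.06), 0.0 under crenolanib (-0.14 to 0.14) and -0.3 with the combination (-0.66 to 0.05). Without combination library 1, where STAT5B was highest of the 3 at 10.8 FPKM, the last one passed (-0.43, adjusted p = 0.015), as it did with 1 spread for all 4 groups (-0.3, adjusted p = 0.034). Under median-ratio scaling it turned to 0.33 and did not pass (adjusted p = 0.12). The ratio of STAT5A to STAT5B within a library, which no scaling of libraries can change, was 1.46 to 1.7 in DMSO and 2.39 to 2.43 with HPA-12. It was 1.74 to 2.12 under crenolanib and 0.434 to 0.928 with the combination, so STAT5A was above STAT5B in 9 libraries and below it in the 3 combination libraries. The transcripts share 507 windows of 50 identical bases, 11.9% of those of STAT5A and 10.0% of those of STAT5B. Reads from these could be split between them, so both values are uncertain to that extent.

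**Figure D1:**
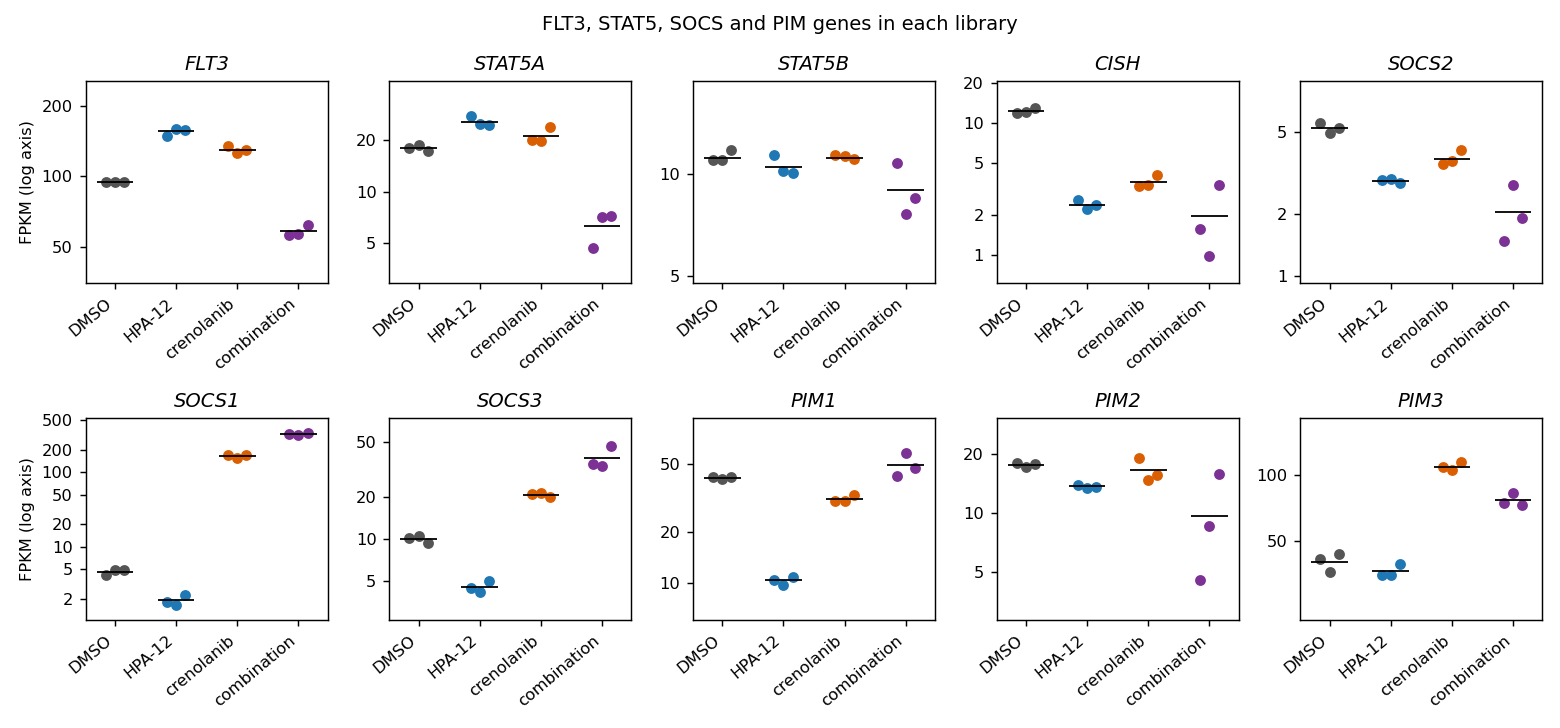
FPKM of the 10 genes in each of the 12 libraries (points, log axis) by group, with the group mean as a bar. SOCS1 spans 1.67 to 334 FPKM, the widest range of the 10, and STAT5B lies between 7.62 and 11.8 FPKM throughout.

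Of the feedback inhibitors, CISH and SOCS2 were lower than in DMSO in all treated libraries as deposited. CISH (ENSG00000114737, chromosome 3, 50606490 to 50611831, minus strand), the gene with the 4 GAS matches shown above, had 12, 12.1 and 13.0 FPKM in DMSO. It had 2.61, 2.21 and 2.41 FPKM with HPA-12, 3.34, 3.39 and 4.05 under crenolanib, and 1.57, 0.975 and 3.4 with the combination. The DMSO libraries stood alone, and the combination libraries overlapped those of each single compound. CISH fell by 1.97 ± 0.08 with HPA-12 (adjusted p = 3.5e-10), by 1.54 ± 0.09 under crenolanib (adjusted p = 3.5e-07) and by 2.24 ± 0.29 with the combination (adjusted p = 0.00072). Under median-ratio scaling the last value was -1.73 (adjusted p = 0.0059).

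The combination did not lower CISH beyond crenolanib by a passing margin (-0.7 ± 0.31, 95% interval -1.43 to 0.02, adjusted p = 0.091). Without combination library 3, which had the highest CISH of its group, this difference was -1.02 (adjusted p = 0.0084), and against HPA-12 it went from -0.28 (adjusted p = 0.46) to -0.6 (adjusted p = 0.031). The difference from crenolanib also passed with 1 spread for all 4 groups (adjusted p = 0.017) and with group weights (adjusted p = 0.034). Under median-ratio scaling the 2 differences were -0.23 (adjusted p = 0.67) and 0.21 (adjusted p = 0.65). The combination values of CISH rest on about 35.4, 25.3 and 79.9 estimated reads, against 840 to 977 in DMSO. CISH shares 218 exon bases with MAPKAPK3 on the opposite strand, and the strand setting of the counting is not given in the sources used here. MAPKAPK3 stood at 63.2 ± 2.0 FPKM in DMSO and at 29.9 ± 0.89, 27.8 ± 1.93 and 19.3 ± 0.794 (SD, n = 3) with HPA-12, crenolanib and the combination, and its part in the CISH values was not tested.

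SOCS2 (ENSG00000120833, chromosome 12, 93569814 to 93583487, plus strand), which is best known for restraining growth hormone signalling, had 4.99 to 5.57 FPKM in DMSO, 2.83 to 2.97 with HPA-12, 3.5 to 4.09 under crenolanib and 1.47 to 2.77 with the combination. It fell by 0.68 ± 0.08 with HPA-12 (adjusted p = 5.3e-06) and by 0.41 ± 0.09 under crenolanib (adjusted p = 0.0023). In the combination it fell by 1.06 ± 0.2 (adjusted p = 0.0033), which did not pass under median-ratio scaling (-0.55, adjusted p = 0.077). SOCS2 overlaps the antisense gene SOCS2-AS1 over 277 exon bases, and reads from both cannot be told apart without strand.

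SOCS1 (ENSG00000185338, chromosome 16, 11254405 to 11256200, minus strand), whose protein blocks JAK kinases directly and which interferons induce, moved in opposite directions with the single compounds. It had 4.13, 4.9 and 4.82 FPKM in DMSO, 1.84, 1.67 and 2.28 with HPA-12, 167, 155 and 169 under crenolanib, and 325, 317 and 334 with the combination. No 2 groups overlapped. SOCS1 fell by 0.94 ± 0.1 with HPA-12 (adjusted p = 2.9e-06) and rose by 4.87 ± 0.07 under crenolanib (adjusted p = 8.7e-11), 35.4-fold between the means. It went on to rise by 0.99 ± 0.05 from crenolanib to the combination (adjusted p = 2.6e-05; 1.67 under median-ratio scaling), to 70.5-fold the DMSO mean. Last of the 10 by mean level in DMSO and HPA-12, SOCS1 was the most abundant of the 10 transcripts under crenolanib and with the combination.

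SOCS3 (ENSG00000184557, chromosome 17, 78356778 to 78360077, minus strand), an inhibitor of cytokine receptors that signal through STAT3, followed SOCS1 in direction. It had 10.2, 10.5 and 9.49 FPKM in DMSO, 4.47, 4.22 and 5.04 with HPA-12, 21.2, 21.6 and 20.2 under crenolanib, and 34.9, 33.5 and 46.7 with the combination. Again no 2 groups overlapped. SOCS3 fell by 0.99 ± 0.08 with HPA-12 (adjusted p = 1.8e-07), rose by 0.99 ± 0.06 under crenolanib (adjusted p = 8.7e-07) and rose by 1.82 ± 0.15 with the combination (adjusted p = 9.2e-05; 2.48 under median-ratio scaling).

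CISH and SOCS2 thus fell with each compound, whereas SOCS1 and SOCS3 fell with HPA-12 and rose under crenolanib. Ratios of these genes within a library do not depend on scaling. SOCS1 stood at 0.345 to 0.405 times CISH in DMSO, 0.707 to 0.943 times with HPA-12, 41.8 to 50 times under crenolanib and 98.3 to 326 times with the combination. SOCS3 over SOCS2 was 1.82 to 2.11 in DMSO, 1.42 to 1.78 with HPA-12, 4.95 to 6.05 under crenolanib and 12.1 to 24.4 with the combination. In both ratios crenolanib and the combination libraries lay above all DMSO and HPA-12 libraries.

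**Figure D2:**
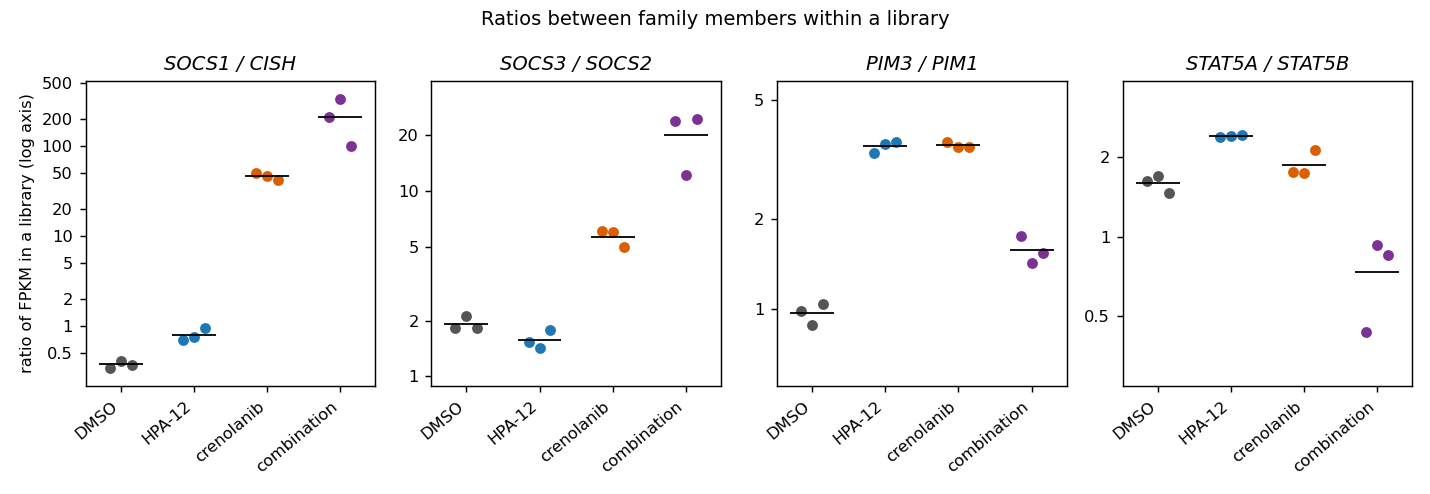
Ratios of FPKM between pairs of the genes within each library (points, log axis) by group, with the group mean as a bar. SOCS1 over CISH goes from a mean of 0.374 in DMSO to 45.8 under crenolanib and 210 with the combination.

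The PIM kinases went separate ways. PIM1 (ENSG00000137193, chromosome 6, 37170203 to 37175426, plus strand), a known STAT5 target, had 41.8, 40.7 and 41.7 FPKM in DMSO, 10.5, 9.75 and 10.9 with HPA-12, 30.2, 30.2 and 32.9 under crenolanib, and 42.3, 58.1 and 47.4 with the combination. The HPA-12 libraries were far below the rest, and every combination library was above every DMSO library. PIM1 fell by 1.9 ± 0.06 with HPA-12 (adjusted p = 4.3e-11) and by 0.4 ± 0.05 under crenolanib (adjusted p = 8.1e-05). In the combination it differed from DMSO by 0.23 ± 0.12 (adjusted p = 0.14). That difference passed at 0.92 under median-ratio scaling (adjusted p = 0.0017), at 0.37 when the total left out mitochondrial genes (adjusted p = 0.04), and at 0.34 without combination library 1 (adjusted p = 0.034). PIM1 rose by 2.13 ± 0.14 from HPA-12 to the combination (adjusted p = 2.8e-05).

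PIM3 (ENSG00000198355, chromosome 22, 49960513 to 49964080, plus strand) rose under crenolanib, where PIM1 fell. It had 41.1, 36.0 and 43.4 FPKM in DMSO, 34.7, 34.7 and 39.3 with HPA-12, 109, 105 and 114 under crenolanib, and 74.1, 82.3 and 73.0 with the combination. DMSO and HPA-12 libraries overlapped, and the other 2 groups stood above them. PIM3 rose by 1.43 ± 0.07 under crenolanib (adjusted p = 1.5e-07) and by 0.92 ± 0.1 with the combination (adjusted p = 0.0003; 1.6 under median-ratio scaling). From crenolanib to the combination it fell by 0.51 ± 0.08 as deposited (adjusted p = 0.0014), while the same difference was 0.17 under median-ratio scaling (adjusted p = 0.15). With HPA-12 the difference of -0.14 did not pass (adjusted p = 0.09), although it did without DMSO library 2 (-0.22, adjusted p = 0.014) or HPA-12 library 3 (-0.2, adjusted p = 0.032).

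PIM2 (ENSG00000102096, X chromosome, 48913182 to 48919024, minus strand) fell by 0.35 ± 0.05 with HPA-12 (adjusted p = 8.3e-05), from 17.6 ± 0.398 to 13.7 ± 0.265 FPKM (SD, n = 3). That call ended with 1 spread for all 4 groups (adjusted p = 0.34). Under crenolanib it was 19.1, 14.7 and 15.6 FPKM, overlapping DMSO (-0.1, adjusted p = 0.34; -0.2, adjusted p = 0.017, without crenolanib library 1). The combination libraries spread from 4.53 through 8.57 to 15.7 FPKM, the second widest spread of the 10 genes in that group for their mean after CISH. The combination difference from DMSO, -0.96 ± 0.37, did not pass (adjusted p = 0.061). It did at -1.36 without combination library 3 (adjusted p = 0.0059), when genes averaging under 5 FPKM were left out (adjusted p = 0.044), in a fit with group weights (adjusted p = 0.0033) and with 1 spread for all 4 groups (adjusted p = 0.011). Under median-ratio scaling it was -0.32 (adjusted p = 0.54). PIM3 and PIM1 were at near-equal levels in DMSO, at a ratio of 0.884 to 1.04. PIM3 stood at 3.32 to 3.6 times PIM1 with HPA-12, where PIM1 had fallen, and at 3.47 to 3.61 times under crenolanib, where PIM3 had risen. With the combination the ratio was 1.42 to 1.75.

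Counted together, 2 of the 10 genes rose and 6 fell with HPA-12, where 77.8% of all tested genes changed (43.2% rose and 34.6% fell). Under crenolanib 5 rose and 3 fell, where 75.5% of all genes changed (36.1% rose and 39.4% fell). With the combination 3 rose and 4 fell against DMSO, where 61.9% of all genes changed (12.3% rose and 49.6% fell). Under median-ratio scaling 4 rose and 2 fell, where 46.7% of all genes changed. Shares of 8, 8 and 7 in 10 are near these backgrounds, so the number of changed members is no result about them. The median difference of the 10 was -0.51 with HPA-12 against 0.09 over all genes, 0.11 under crenolanib against -0.04, and -0.5 with the combination against -0.62. Of all genes called in the combination against DMSO, 19.9% had risen as deposited and 45.4% under median-ratio scaling.

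**Figure D3:**
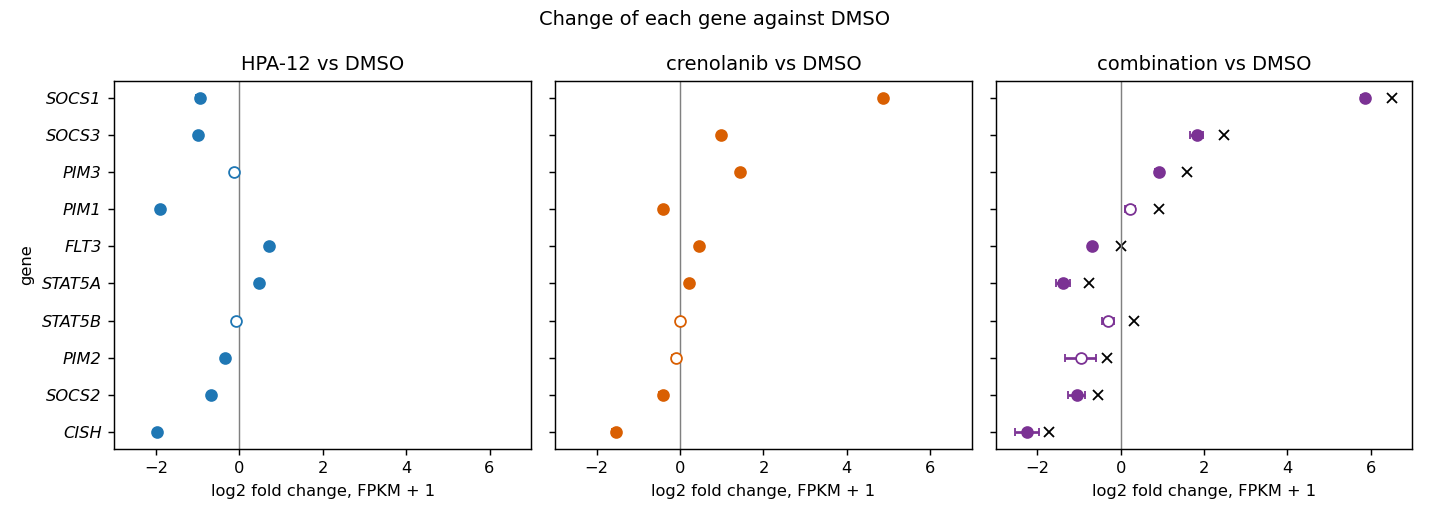
Log2 fold change of FPKM plus 1 from DMSO (horizontal axis) for the 10 genes with HPA-12, crenolanib and the combination. Points are values as deposited with their standard error, filled where the adjusted p is below 0.05, and crosses are combination values under median-ratio scaling. CISH and SOCS2 lie below 0 in all 3 panels, and SOCS1 runs from -0.94 with HPA-12 to 5.86 with the combination.

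Set directly against each other, crenolanib and HPA-12 libraries differed in 9 of the 10 genes, where 64.1% of all genes differed (29% higher and 35.1% lower under crenolanib). With 1 spread for all 4 groups 5 of the 10 passed, 4 higher and 1 lower. That fit also called fewer of all genes lower under crenolanib, 2411 against 3913 with the spread of the 2 groups alone. Its count of all genes called higher is not given here, so the smaller number of members is no result about them. With the spread of the 2 groups alone, 7 of the 10 were higher under crenolanib. They were led by SOCS1 (5.82 ± 0.08), SOCS3 (1.98 ± 0.08), PIM3 (1.57 ± 0.06) and PIM1 (1.5 ± 0.07), each with libraries that did not overlap. CISH was 0.43 ± 0.11 higher under crenolanib (adjusted p = 0.0069), a call that ended with 1 spread for all 4 groups (adjusted p = 0.16). FLT3 (-0.26 ± 0.04, adjusted p = 0.00067) and STAT5A (-0.27 ± 0.08, adjusted p = 0.016) were lower under crenolanib. The calls of PIM2 (0.25, adjusted p = 0.04), SOCS2 (0.28, adjusted p = 0.036) and STAT5A each ended without 1 of several libraries, and with 1 spread for all 4 groups (adjusted p = 0.52, 0.17 and 0.14). Without HPA-12 library 1 all 3 ended, with adjusted p of 0.073, 0.073 and 0.062. That of STAT5A also ended without crenolanib library 1 or 2 (0.051 each), that of SOCS2 without HPA-12 library 2 (0.071) or 3 (0.12) or crenolanib library 3 (0.097), and that of PIM2 without HPA-12 library 2 (0.095) or 3 (0.092), crenolanib library 1 (0.14, adjusted p = 0.13) or the filter (0.086).

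What HPA-12 did on top of crenolanib was read from the combination against crenolanib, where 53.6% of all genes changed (6.74% rose and 46.9% fell). Of the called genes, 12.6% rose as deposited and 51.4% under median-ratio scaling, which called 26.3% of all genes. Of the 10 genes 3 rose, SOCS1, SOCS3 (0.83 ± 0.14) and PIM1 (0.64 ± 0.13), and these 3 also rose under that scaling. FLT3, STAT5A (-1.6 ± 0.18), PIM3 and SOCS2 fell as deposited, and FLT3 and STAT5A (-0.98) fell under both. SOCS2 (-0.65, adjusted p = 0.04) did not pass without any 1 of the 3 crenolanib libraries (adjusted p = 0.1, 0.11 and 0.14) or without combination library 1 (0.067) or 3 (0.063), and was -0.16 under median-ratio scaling (adjusted p = 0.67). PIM2 passed without combination library 3 (-1.26, adjusted p = 0.0089, from -0.86) and STAT5B without combination library 1 (-0.43, adjusted p = 0.027, from -0.3). Under median-ratio scaling these differences were -0.23 (adjusted p = 0.7) and 0.32 (adjusted p = 0.18). Against HPA-12, where 62% of all genes changed (11.8% rose and 50.2% fell), 4 of the 10 rose in the combination and 2 fell. Of all genes called there, 19.0% had risen as deposited and 47.1% under median-ratio scaling, which called 45.4% of all genes and left the counts of the 10 at 4 and 2. SOCS1 rose by 6.8 ± 0.11, SOCS3 by 2.81 ± 0.16, PIM1 by 2.13 ± 0.14 and PIM3 by 1.06 ± 0.09, while FLT3 fell by 1.4 ± 0.07 and STAT5A by 1.86 ± 0.17. PIM2 passed there without combination library 3 (-1.01, adjusted p = 0.014, from -0.61), and SOCS2 without combination library 2 (-0.54, adjusted p = 0.024, from -0.38). STAT5B passed without combination library 1 (-0.35, adjusted p just below the threshold and 0.05 when rounded, from -0.22). Under median-ratio scaling the 3 differences turned to 0.05, 0.14 and 0.44, and none passed (adjusted p = 0.93, 0.66 and 0.067).

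The effect of HPA-12 in the presence of crenolanib was then tested against its effect in DMSO, as an interaction over all 12 libraries. It was above 0 for 4 of the 10 genes and below 0 for 3, and passed for 65.4% of all genes (15.4% above and 50% below 0). Of the called genes, 23.6% were above 0 as deposited and 46.3% under median-ratio scaling, which called 54.9% of all genes, and 6 of the 10 above and 2 below 0. PIM1, SOCS1 and SOCS3 fell with HPA-12 alone and rose when it was added to crenolanib, and their interactions were 2.54 ± 0.15, 1.93 ± 0.13 and 1.82 ± 0.17. FLT3 and STAT5A did the reverse, rising alone and falling on top of crenolanib (-1.85 ± 0.08 and -2.08 ± 0.19). These 5 kept their sign and passed under median-ratio scaling too. The interaction of CISH was 1.27 ± 0.33 (adjusted p = 0.0048), which marks a smaller difference on top of crenolanib and no passing rise. CISH fell by 1.97 with HPA-12 alone and differed by -0.7 on top of crenolanib (-0.23 under median-ratio scaling). It was already low under crenolanib, at a mean of 3.59 FPKM, and the part of this low level in the interaction was not tested. For PIM3 the sign turned with the scaling, from -0.37 (adjusted p = 0.015) to 0.34 (adjusted p = 0.038), and it did not pass in a fit with group weights (adjusted p = 0.13). The interactions of STAT5B (-0.22), PIM2 (-0.51) and SOCS2 (0.03, 95% interval -0.44 to 0.5) did not pass, although that of STAT5B did without combination library 1 (-0.35, adjusted p = 0.024) and that of PIM2 without combination library 3 (-0.91, adjusted p = 0.0079). Under median-ratio scaling these 3 were 0.43, adjusted p just below the threshold and 0.05 when rounded, 0.14 (adjusted p = 0.8) and 0.52 (adjusted p = 0.073).

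**Figure D4:**
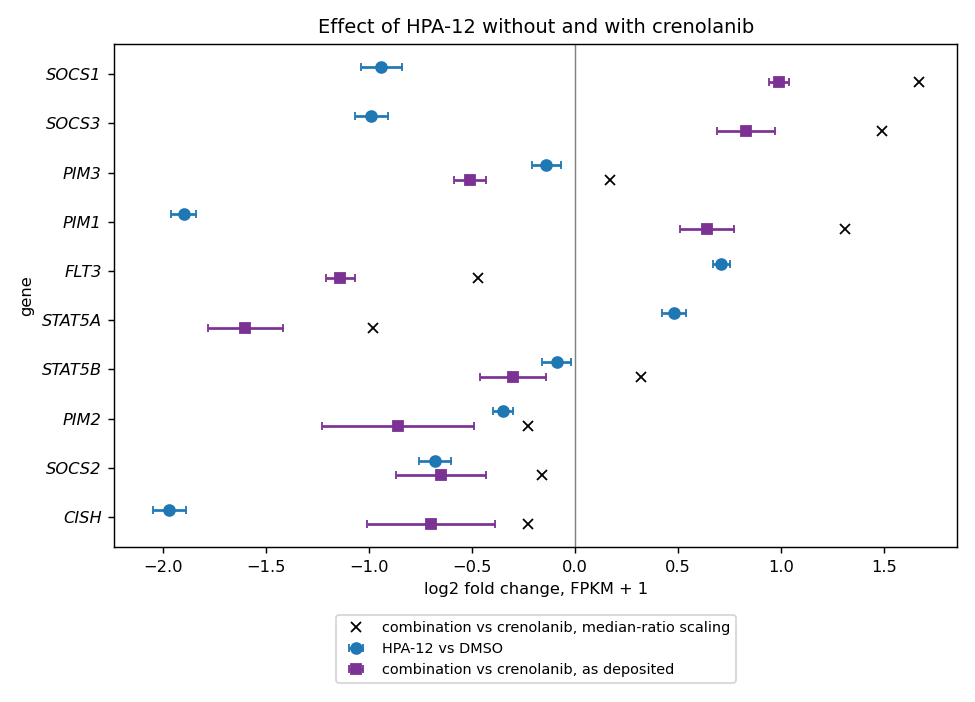
Log2 fold change of FPKM plus 1 made by HPA-12 without crenolanib (circles, HPA-12 against DMSO) and with it (squares, combination against crenolanib) for each of the 10 genes, with standard errors. Crosses are the values with crenolanib under median-ratio scaling. PIM1, SOCS1 and SOCS3 lie below 0 without crenolanib and above 0 with it, and FLT3 and STAT5A the other way round.

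Ranked by level, the 10 genes ran in DMSO from FLT3 (94.6 ± 0.227 FPKM) through PIM1 and PIM3, STAT5A and PIM2, CISH, STAT5B, SOCS3 and SOCS2 to SOCS1 (4.62 ± 0.427). The ranges of PIM1 and PIM3 overlapped, as did those of STAT5A and PIM2. With HPA-12 FLT3 stayed first at 156 ± 5.49 FPKM, PIM1 moved to sixth beside STAT5B, and CISH and SOCS1 overlapped at the bottom. Under crenolanib the order was led by SOCS1 (164 ± 7.97), FLT3 (130 ± 4.34) and PIM3 (109 ± 4.49), which did not overlap. With the combination SOCS1 (325 ± 8.26) was followed by PIM3 (76.5 ± 5.07) and by FLT3, whose range overlapped that of PIM1. CISH and SOCS2 were last in both of these groups and overlapped each other.

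Among 6221 other genes that averaged 5 FPKM or more, those whose pattern over the 12 libraries was most like that of FLT3 were TMEM9B (28.3 FPKM with HPA-12 and 10.3 with the combination), LAMP2 and SUSD6. Likeness is the root mean square difference of centred log2 values, which was 0.08, 0.08 and 0.09. Nearest to PIM1 were PSTPIP2 (0.18), STOM (0.19) and MS4A3 (0.21), and MS4A3 went from 19.4 FPKM in DMSO to 3.46 with HPA-12, 17.5 under crenolanib and 24.9 with the combination. Nearest to SOCS1 were the stress gene GADD45B (0.34), PHLDA2 (0.45) and the early response gene FOSB (0.51). These distances are larger, but SOCS1 itself varied more over the 12 libraries. The SD of its log2 values was 3.09, against 0.56 for FLT3 and 0.87 for PIM1. GADD45B stood at 16.9 FPKM in DMSO, 15.5 with HPA-12, 660 under crenolanib and 1142 with the combination.

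Other genes of the pathway are given by list, to be read against the shares of all genes called and the medians of all genes given above. Of 22 genes that act close to the receptor 21 were tested: 11 rose and 8 fell with HPA-12 (median 0.14), 8 rose and 12 fell under crenolanib (median -0.32), and 1 rose and 14 fell with the combination (median -1.38; 3 and 10 under median-ratio scaling). The adaptor GAB2 rose from 19.3 ± 1.53 FPKM to 58.0 ± 3.38 with HPA-12 and 66.2 ± 0.923 under crenolanib. SH2B3 (LNK), an adaptor that restrains FLT3 and JAK2 signalling, rose by 1.44 ± 0.05 and 1.07 ± 0.05 with the same compounds. Neither level was kept with the combination, where GAB2 was at 18.6 ± 2.74 FPKM and SH2B3 at 20.7 ± 6.0 (SD, n = 3). From crenolanib to the combination GAB2 fell by 1.79 ± 0.12 (-1.13 under median-ratio scaling). SH2B3 fell there by 1.78 ± 0.18 (-1.12 under that scaling).

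Of 17 other JAK, STAT, SOCS and PIAS genes 16 were tested: 10 rose and 3 fell with HPA-12 (median 0.87), 9 rose and 4 fell under crenolanib (median 0.35), and 1 rose and 9 fell with the combination (median -0.5; 3 and 6 under median-ratio scaling). STAT2, which mediates the response to type I interferon, rose by 1.91 ± 0.05 with HPA-12, from 19.5 ± 0.429 to 76.1 ± 1.98 FPKM. It was at 27.7 ± 0.686 FPKM under crenolanib and 8.95 ± 0.782 with the combination (SD, n = 3). From HPA-12 to the combination STAT2 fell by 2.96 ± 0.1 (-2.28 under median-ratio scaling). SOCS4, another member of the SOCS family, rose by 1.16 ± 0.09 with HPA-12 and 1.69 ± 0.08 under crenolanib. JAK2 rose under crenolanib (1.2 ± 0.09) and with the combination (0.99 ± 0.22, adjusted p = 0.0068; 1.56 under median-ratio scaling). Its level was also higher with HPA-12, at 5.41 ± 0.769 FPKM against 2.45 ± 0.0564 in DMSO (SD, n = 3). The test of that difference is not reported here. Under crenolanib JAK2 was at 6.94 ± 0.581 FPKM and with the combination at 6.02 ± 1.78. STAT6, the mediator of interleukin-4 signals, fell by 0.95 ± 0.04 under crenolanib and by 2.04 ± 0.09 with the combination (-1.37 under median-ratio scaling). Its difference with HPA-12, -0.15 ± 0.05 (adjusted p = 0.011), did not pass when mitochondrial genes were left out of the sum (-0.04, adjusted p = 0.47) or with 1 spread for all 4 groups (adjusted p = 0.11).

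Of 13 STAT5 targets outside the 10 genes 11 were tested: 4 rose and 7 fell with HPA-12 (median -0.49), 5 rose and 4 fell under crenolanib (median -0.1), and 4 rose and 4 fell with the combination (median -0.45; 4 and 2 under median-ratio scaling). ID1, an inhibitor of differentiation factors, went the way of SOCS1 and SOCS3. It fell with HPA-12 (-1.72 ± 0.14, from 4.33 ± 1.02 to 0.606 ± 0.183 FPKM) and rose under crenolanib (23.3 ± 2.97 FPKM) and the combination (77.6 ± 16.0 FPKM; 3.88, or 4.53 under median-ratio scaling). The cyclin gene CCND3, lowered like CISH by both single compounds, fell by 1.19 ± 0.06 and 1.21 ± 0.05. CDKN1A, the cell cycle inhibitor p21, rose from 4.05 ± 0.446 FPKM to 17.3 ± 0.448, 40.7 ± 1.86 and 58.0 ± 6.71 (SD, n = 3; 3.54 for the last, or 4.19 under median-ratio scaling), and is also in the list of PIM substrates.

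Of 11 genes of PIM kinase substrates, 6 rose and 2 fell with HPA-12 (median 0.54), 6 rose and 3 fell under crenolanib (median 0.49), and 4 rose and 7 fell with the combination (median -0.85; 5 and 3 under median-ratio scaling). FOXO3, a transcription factor that PIM kinases hold inactive, rose by 1.39 ± 0.07, 1.78 ± 0.08 and 1.54 ± 0.15 (2.16 under median-ratio scaling) with HPA-12, crenolanib and the combination. CXCR4, a chemokine receptor, rose by 1.44 ± 0.05 with HPA-12, from 50.8 ± 2.45 to 139 ± 5.18 FPKM. It was at 71.6 ± 2.33 FPKM under crenolanib and 27.8 ± 3.03 with the combination (SD, n = 3). From HPA-12 to the combination CXCR4 fell by 2.29 ± 0.1 (-1.58 under median-ratio scaling). Of the 5 genes whose products join the SOCS box to ubiquitin ligases, 3 rose and 2 fell with HPA-12, 2 rose and 1 fell under crenolanib, and 1 rose and 1 fell with the combination (3 and 0 under median-ratio scaling). Elongin B (ELOB), which binds the SOCS box, fell by 0.76 ± 0.07 and 0.45 ± 0.07 with the single compounds and rose by 0.45 ± 0.11 with the combination (1.1 under median-ratio scaling), a call that ended without DMSO library 2 (0.42, adjusted p = 0.051).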

How the data were processed

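RNA of 12 MV-4-11 libraries was measured by RNA-seq. Per the file headers, the table deposited by the authors holds FPKM, with a column for each library. The sources used here name no aligner, counting method, strand setting, genome build or annotation. All 12 value columns were matched to samples by name; titles and columns spell the short name of crenolanib differently and were read as 1 compound. Of 20036 genes, 2509 were at 0 throughout.

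The 11149 genes that reached 1 FPKM in 3 or more libraries were tested on log2(FPKM + 1) with limma 3.58.1 (trend and robust steps, statmod 1.5.0, R 4.3.3), fitted on only the 2 groups compared, because the combination libraries spread more than the others. The interaction used all 12. P-values are two-sided and Benjamini-Hochberg adjusted over all genes tested, with a threshold of 0.05 and 95% intervals. The fit was tested on simulated data. The members, gene lists and tests were chosen with earlier results of these data known.

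Depth was estimated from the steps of low FPKM values with GENCODE 29 exon lengths. Of values under 20 estimated reads, 30.6% to 39.6% came out whole within 0.01 read, so depths and read numbers are approximate and no count test was run. Genes named beside the 10 are, per list and comparison, among the 3 largest rises and 3 largest falls that passed with a mean of at least 5 FPKM. Some genes that this rule takes are not reported here. Alternatives were 2 scalings, mitochondrial genes left out of the total, other filters and pseudocount, 4-group fits, a replicate block and each library left out.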

Additional observations from a re-analysis of the deposited data

Results flagged for a closer look

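For 7 of the 10 genes the effect of HPA-12 differed between cells without and with crenolanib, by limma's test of the difference itself (the change from crenolanib to the combination, less the change from DMSO to HPA-12). The log2 interaction was 2.54 for PIM1 (3.22 under median-ratio scaling), 1.93 for SOCS1 (2.6), 1.82 for SOCS3 (2.49) and 1.27 for CISH (1.72). It was -1.85 for FLT3 (-1.15) and -2.08 for STAT5A (-1.44). For PIM3 it was -0.37 as deposited and 0.34 under that scaling, so its direction rests on the scaling. CISH, unlike PIM1, SOCS1 and SOCS3, did not rise on top of crenolanib. Its difference there was -0.7 (adjusted p = 0.091), against -1.97 without crenolanib. Interactions passed for 65.4% of all genes tested, so a difference of this kind is common in these libraries.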

How the results depend on the processing

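Across 21 alternatives, 12 of which leave out a library, 998 of 1093 values of the 10 genes kept direction and call, 31 gained a call, 37 lost one and 27 turned sign, 23 of these passing in neither fit. Of 70 values (10 genes in 7 comparisons), 43 kept both under every alternative run. Median-ratio and upper-quartile scaling account for 20 of the 27 turns, all in comparisons with the combination, and the cause was not tested. STAT5B was 0.33 and 0.33 against DMSO, 0.32 and 0.32 against crenolanib, 0.44 and 0.43 against HPA-12, and 0.43 and 0.42 in the interaction. PIM3 was 0.17 and 0.16 against crenolanib and 0.34 and 0.32 in the interaction, and PIM2 was 0.05 and 0.04 against HPA-12 and 0.14 and 0.13 in the interaction. Against HPA-12, SOCS2 was 0.14 and 0.13 and CISH 0.21 and 0.20. The interaction of SOCS2, 0.03, was -0.04 with a pseudocount of 0.1, -0.06 without mitochondrial genes and -0.13 to 0.17 with a library left out. Without mitochondrial genes, STAT5B was 0.02 with HPA-12 and PIM2 0.02 under crenolanib. Of the other genes, ARIH2 was 0.21 and 0.21 against crenolanib and 0.11 and 0.09 against HPA-12, and MCL1 was 0.47 and 0.46 against HPA-12. Combination values are limited by depth and by the spread of its libraries.

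Counts over all genes moved with the same scalings. In the combination against DMSO 2364 and 2360 genes rose and 2847 and 2866 fell (as deposited 1372 and 5532). Against crenolanib 1506 and 1496 rose and 1422 and 1437 fell (751 and 5226), against HPA-12 2383 and 2366 rose and 2681 and 2726 fell (1317 and 5599), and in the interaction 2832 and 2805 were above and 3284 and 3319 below 0 (1720 and 5573). A mean of at least 5 FPKM, which leaves 6231 genes, gave 2656 raised and 2444 lowered with HPA-12, 2020 raised under crenolanib, 796 raised in the combination against DMSO, 820 raised in it against HPA-12, 1833 higher under crenolanib than HPA-12, and 3481 interactions below 0. One spread for all 4 groups gave 3088 raised and 2564 lowered with HPA-12 and 2411 lower under crenolanib than HPA-12.

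Deviations of same-numbered libraries from their group means were little correlated (correlations -0.0294 to 0.068). The labels do not say whether same-numbered libraries share a culture or batch, and correlations this small cannot settle it. With the number as a replicate block, 4 of the 70 calls changed: PIM3 with HPA-12 (-0.14, adjusted p = 0.032) and PIM2 in the combination against DMSO (-0.96, adjusted p = 0.033) passed, and SOCS2 in the combination against crenolanib (-0.65, adjusted p = 0.074) and under crenolanib against HPA-12 (0.28, adjusted p = 0.063) did not.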
